A study of Rattus norvegicus with 7 samples.

Results

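Superoxide and peroxide handling enzymes were compared in alveolar type 2 cells, the surfactant-producing cells of the lung alveolus, from ethanol-fed and control rats. The genes were taken by their platform gene symbol from a list of 10, namely Sod1, Sod2, Sod3, Prdx1, Prdx2, Gpx3, Gpx4, Txn1, Cyba and Cybb. Of these, 8 genes had a probe set carrying their symbol alone, with 12 probe sets in all among the 8740 tested. Txn1, which encodes thioredoxin, and Cybb, which encodes the catalytic subunit of the phagocyte NADPH oxidase, had no such probe set and were not analysed here.

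The ethanol group was 3 male Sprague Dawley rats given the Lieber-DeCarlie liquid diet with 36% of calories from ethanol (EtOH) for 6 weeks. The control group was 4 male rats of that strain, which took in an isocaloric replacement for the ethanol over the same 6 weeks. The ages of the animals are not given in the sources used here. Each rat gave 1 sample of type 2 cells, isolated by immunoabsorption, and its total RNA was read on 1 Affymetrix expression array. Values are log2 expression per probe set, errors are SD over animals unless SE is written, and all differences are ethanol minus control. Arrays are named by group and replicate number, controls 1 to 4 and ethanol 2 to 4. No ethanol replicate 1 is among the samples. The titles number the control arrays 1 to 4 and the ethanol arrays 6 to 8, so diet and this numbering cannot be told apart.

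Superoxide is formed by NADPH oxidases and leaks from mitochondrial respiration. Superoxide dismutases turn it into hydrogen peroxide and oxygen, and the peroxide is then reduced by catalase, by peroxiredoxins that draw on thioredoxin, and by glutathione peroxidases that draw on glutathione. The alveolar epithelium faces inhaled oxygen directly, and extracellular superoxide dismutase is known to be abundant in the lung.

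The deposited values ran from 1.65 to 12.84, and arrays correlated pairwise at 0.929 to 0.983 over all probe sets. Control 2 stood apart from the other arrays, at 30.5 on the first principal component against -18.9 to 5.83, and its log2 values had the smallest SD, 1.29 against 1.34 to 1.46. Of 9 markers listed for type 2 cells 5 were measured, led by the surfactant protein C gene Sftpc with a control mean of 12.80 and an ethanol mean of 12.58. The 5 had a median difference of -0.22, from -0.41 for Nkx2-1 to 0.23 for Sftpa1, and 0 of them passed limma's test for a difference. Lists of endothelial, club cell, type 1 cell and B cell markers, with 3 of 6, 2 of 3, 4 of 4 and 2 of 3 genes measured, had median differences of 0.00, 0.19, 0.22 and -0.08, and 0 of these genes passed. The type 1 cell markers were split, with Cav1 at 0.58, Aqp5 at 0.41, Ager at 0.04 and Pdpn at -0.47. Cav1 and Pdpn each had an unadjusted limma p of 0.023, where 4.58% of all probe sets were under 0.05. Mesenchymal, erythroid and phagocyte markers are given beside the members they bear on. The number of animals limits the precision, and fewer cells of a type and less RNA per cell cannot be told apart in such samples. The SE of a member's difference ran from 0.111 to 0.367.

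No member passed the test for a difference between the diets. In limma, 0 of the 12 probe sets passed an adjusted p of 0.05, where 0.149% of all probe sets did, and 0 were at an unadjusted p under 0.05, where 4.58% of all were. Their adjusted p-values (Benjamini-Hochberg over all 8740) lay between 0.967 and 0.995. Differences ran from -0.17 for Sod2 to 0.33 for Gpx4. All 12 of the 95% confidence intervals lay between -0.79 and 0.86 on the log2 scale, so each, taken singly, left out a 2-fold change in either direction. For 7 of the 12 the interval also left out a 1.5-fold change.

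A difference above 0 was found in 11 of the 12 probe sets, against 48.5% of all probe sets, and in 7 of the 8 genes when the brightest probe set stood for each. The median over the 8 genes was 0.14, against -0.01 over all genes, and it was 0.084 without control 3 and 0.254 without control 4. The count of probe sets above 0 was 8 of the 12 without control 2 or without ethanol 2. It was 9 after quantile normalization, with array weights or with the array SD as a covariate, and 9 without control 1 or without ethanol 4. The count of genes above 0 was 5 of the 8 after quantile normalization, with the replicate block, without control 1 and without ethanol 2. It was 6 or 7 in the other settings. The share of all probe sets above 0 also changed with the setting, from 45.5% without ethanol 2 to 51.6% with median centring. The 12 probe sets share their 7 arrays and in part their genes, so the count is not that of 12 separate measurements.

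**Figure D1:**
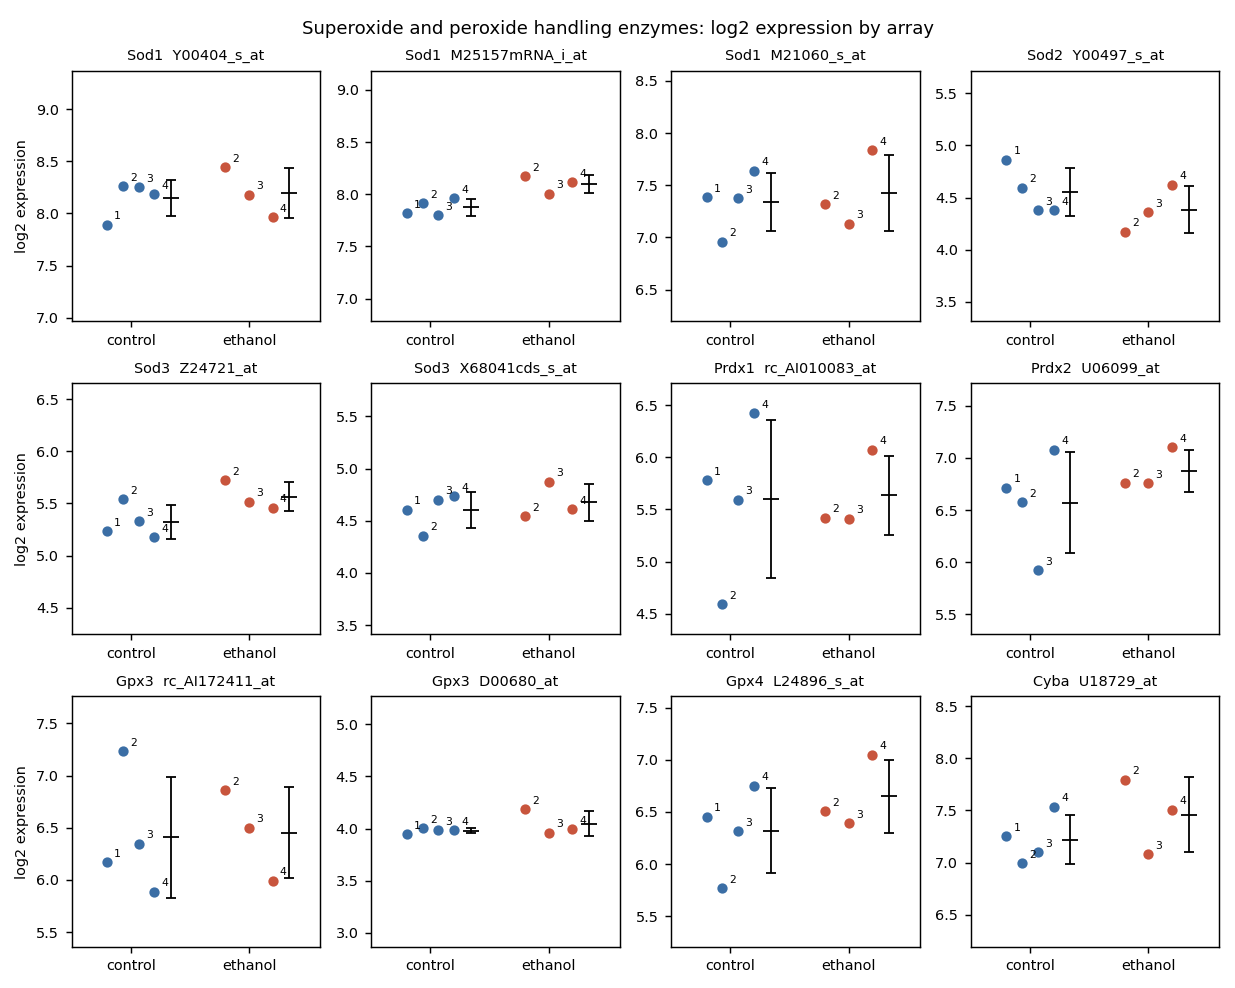
Log2 expression (vertical axis, each panel spanning the same 2.4 log2 units) of the 12 probe sets of the 8 measured genes on the 4 control arrays (blue) and the 3 ethanol arrays (red), with replicate numbers beside the points and the group mean ± SD as black bars. The groups overlap in every panel except Sod1 M25157mRNA_i_at, and control 2 lies lowest for Prdx1 and Gpx4 and highest for Gpx3 rc_AI172411_at.

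Prdx1, Gpx3 and Gpx4 were the members with the largest SD over the 7 arrays, at 0.579, 0.482 and 0.395 in their brightest probe sets, with Prdx2 just below at 0.394. Over the 7 arrays they ran together or in opposition, with only the Prdx1 and Gpx3 pair past adjustment, as given further on. The promoters of these 3 genes are printed from 250 bases before to 50 after the annotated start in RefSeq on the GRCr8 build. That of Sod2 is added as the other member whose window held the motif searched. The motif was the antioxidant response element core TGACNNNGC, on either strand, which 12.1% of the 33469 RefSeq promoter windows of this length hold. Capitals mark its match, which in both cases lies on the strand opposite to the gene. Of the 8 measured genes 7 had a promoter in the table. Windows are Prdx1 on the plus strand at chr5:135383656-135383955, Sod2 on the minus strand at chr1:50050119-50050418, Gpx3 on the plus strand at chr10:39529085-39529384 and Gpx4, at the most upstream of its 3 starts, on the minus strand at chr7:10303580-10303879.
Prdx1: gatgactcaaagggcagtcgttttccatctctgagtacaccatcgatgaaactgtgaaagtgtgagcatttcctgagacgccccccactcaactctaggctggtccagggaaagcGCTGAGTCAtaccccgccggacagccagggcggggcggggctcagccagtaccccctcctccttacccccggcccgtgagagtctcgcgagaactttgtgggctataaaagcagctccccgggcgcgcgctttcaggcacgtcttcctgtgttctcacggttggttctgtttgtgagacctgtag
Sod2: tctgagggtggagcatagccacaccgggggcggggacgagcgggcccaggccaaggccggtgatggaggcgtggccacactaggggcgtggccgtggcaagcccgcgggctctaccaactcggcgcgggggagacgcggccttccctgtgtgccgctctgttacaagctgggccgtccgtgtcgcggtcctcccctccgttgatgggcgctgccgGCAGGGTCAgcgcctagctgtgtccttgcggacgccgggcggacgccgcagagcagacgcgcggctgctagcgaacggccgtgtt
Gpx3: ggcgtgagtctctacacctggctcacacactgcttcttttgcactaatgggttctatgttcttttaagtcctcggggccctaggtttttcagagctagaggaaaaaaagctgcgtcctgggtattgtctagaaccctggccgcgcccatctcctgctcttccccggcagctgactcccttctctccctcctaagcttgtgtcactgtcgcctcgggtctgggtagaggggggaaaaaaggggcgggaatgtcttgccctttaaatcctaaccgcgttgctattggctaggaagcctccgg
Gpx4: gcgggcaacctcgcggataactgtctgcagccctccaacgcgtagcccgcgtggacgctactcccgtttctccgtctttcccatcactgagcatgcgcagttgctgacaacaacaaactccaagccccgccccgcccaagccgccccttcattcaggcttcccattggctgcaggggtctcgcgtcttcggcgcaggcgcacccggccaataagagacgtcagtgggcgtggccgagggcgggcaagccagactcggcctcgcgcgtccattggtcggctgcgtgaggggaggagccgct
The match GCTGAGTCA begins 135 bases before the Prdx1 start and the match GCAGGGTCA 35 bases before that of Sod2. The windows of Sod1, Prdx2, Gpx3, Gpx4 (all 3 starts) and Cyba do not hold these letters. A match is a description of the sequence only, and no probe set here reads a promoter.

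Sod1 encodes the copper-zinc superoxide dismutase of the cytosol and was read by 3 probe sets. M25157mRNA_i_at lay at 7.82, 7.91, 7.80 and 7.96 in controls 1 to 4 and at 8.17, 8.01 and 8.11 in ethanol 2, 3 and 4. All 3 ethanol arrays were above all 4 controls, as in 2.53% of all probe sets. This was the only 1 of the 12 member probe sets whose groups did not overlap, against 5.24% of all probe sets. Its means were 7.87 ± 0.078 (n = 4) and 8.10 ± 0.084 (n = 3), a difference of 0.22 (SE 0.111, 95% confidence interval -0.03 to 0.47, limma adjusted p = 0.967), or 1.17-fold. The unadjusted p was 0.0739. After quantile normalization the difference was 0.08 (unadjusted p = 0.638).

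The other Sod1 probe sets did not show that separation. Y00404_s_at lay at 7.89, 8.26, 8.25 and 8.19 in the controls and at 8.45, 8.18 and 7.97 with ethanol, so that ethanol 2 was the highest array and ethanol 4 below 3 of the controls. Its difference was 0.05 (SE 0.152, adjusted p = 0.982 in limma). M21060_s_at lay between 6.96 and 7.64 in the controls and between 7.13 and 7.84 with ethanol, with ethanol 4 the highest, and differed by 0.09 (SE 0.204). The suffix _s_at marks probes that can be shared by more than one transcript, and the array order of the 3 probe sets differed.

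Sod2, the manganese superoxide dismutase of mitochondria and a gene induced by inflammatory signals, was the member with a difference below 0. Its probe set Y00497_s_at lay at 4.86, 4.60, 4.38 and 4.38 in controls 1 to 4 and at 4.17, 4.36 and 4.62 in ethanol 2, 3 and 4. Ethanol 2 was the lowest array and control 1 the highest, and ethanol 4 lay within the control range. The means were 4.55 ± 0.228 and 4.38 ± 0.226, a difference of -0.17 (SE 0.162, 95% confidence interval -0.53 to 0.20, limma adjusted p = 0.967). With each array left out the Sod2 difference stayed below 0, from -0.29 to -0.06.

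Sod3, the secreted extracellular superoxide dismutase, was read by 2 probe sets. Z24721_at lay at 5.23, 5.54, 5.33 and 5.18 in the controls and at 5.72, 5.51 and 5.46 with ethanol. Control 2 lay above ethanol 3 and ethanol 4, and the other controls lay below all ethanol arrays. The difference was 0.24 (SE 0.132, 95% confidence interval -0.05 to 0.54, adjusted p = 0.967 in limma), or 1.18-fold, and 0.32 without control 2. Without control 2 the limma p was 0.0313 unadjusted and 0.981 adjusted, where 4.71% of all probe sets were under 0.05 unadjusted. X68041cds_s_at lay between 4.36 and 4.73 in the controls and between 4.54 and 4.87 with ethanol, a difference of 0.08 (SE 0.140). Vascular smooth muscle is a known source of Sod3. All 5 measured genes of a list of mesenchymal markers (Col1a1, Col1a2, Col3a1, Eln and Acta2) were below 0, from -0.99 to -0.10, and 4 of them (all but Acta2) were at an unadjusted p under 0.05, where 4.58% of all probe sets were, with 0 past the adjusted threshold. Their summed linear signal was 290 to 464 in the controls and 241 to 269 with ethanol. The part of these markers in the Sod3 values was not tested.

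Prdx1 encodes a cytosolic peroxiredoxin that reduces peroxides with electrons from thioredoxin. Its probe set rc_AI010083_at lay at 5.78, 4.59, 5.59 and 6.42 in controls 1 to 4 and at 5.42, 5.41 and 6.07 in ethanol 2, 3 and 4. The controls held both the lowest array, control 2, and the highest, control 4, and the ethanol arrays lay between them. The means were 5.60 ± 0.757 and 5.63 ± 0.379, a difference of 0.04 (SE 0.367, 95% confidence interval -0.79 to 0.86, limma adjusted p = 0.994). The SE is the highest among the members, and the Prdx1 difference was -0.30 without control 2 and 0.31 without control 4.

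Prdx2, a peroxiredoxin of the cytosol that is abundant in red blood cells, lay at 6.71, 6.57, 5.92 and 7.08 in the controls and at 6.76, 6.76 and 7.10 with ethanol (U06099_at). Control 3 was the lowest array, and control 4 lay above ethanol 2 and ethanol 3. The difference was 0.30 (SE 0.242, 95% confidence interval -0.24 to 0.84, adjusted p = 0.967 in limma), or 1.23-fold. Without control 3 the Prdx2 difference was 0.09, and without control 4 it was 0.47. Of 5 listed erythroid markers 3 were measured, with the globin gene Hbb at a difference of 0.46 and Alas2 and Slc4a1 at -0.24 and -0.27. Their summed linear signal ranged from 209 to 256 in the controls and from 158 to 462 with ethanol, and its part in the Prdx2 values was not tested.

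Gpx3 encodes the secreted glutathione peroxidase of plasma, a selenoprotein. Its brighter probe set rc_AI172411_at lay at 6.17, 7.23, 6.35 and 5.89 in controls 1 to 4 and at 6.86, 6.50 and 5.99 in ethanol 2, 3 and 4. Control 2 was the highest array, control 4 the lowest, and the ethanol arrays fell within the control range. The means were 6.41 ± 0.581 and 6.45 ± 0.436, a difference of 0.04 (SE 0.311, 95% confidence interval -0.66 to 0.74, limma adjusted p = 0.994), and the difference was -0.01 after quantile normalization. The second Gpx3 probe set, D00680_at, was dim and nearly flat, at 3.95 to 4.00 in the controls and 3.96 to 4.19 with ethanol, with an SD of 0.081 over the 7 arrays.

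Gpx4 encodes the selenoprotein that reduces lipid hydroperoxides in membranes and thereby guards against ferroptosis. L24896_s_at lay at 6.45, 5.77, 6.31 and 6.75 in the controls and at 6.50, 6.39 and 7.05 with ethanol. Ethanol 4 was the highest array and control 2 the lowest, while control 4 lay above ethanol 2 and ethanol 3. The difference of 0.33 (SE 0.238, 95% confidence interval -0.21 to 0.86, adjusted p = 0.967 in limma), or 1.26-fold, was the highest among the members. It was 0.13 without ethanol 4, 0.14 without control 2 and 0.47 without control 4.

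Cyba encodes p22-phox, the membrane subunit shared by several NADPH oxidases, and is abundant in phagocytes. U18729_at lay at 7.25, 6.99, 7.10 and 7.53 in controls 1 to 4 and at 7.79, 7.08 and 7.51 in ethanol 2, 3 and 4. Ethanol 2 lay above every control, while ethanol 3 lay below 3 of the 4 controls. The means were 7.22 ± 0.235 and 7.46 ± 0.360, a difference of 0.24 (SE 0.191, 95% confidence interval -0.19 to 0.67, limma adjusted p = 0.967), or 1.18-fold. Cyba was at 0.43 without ethanol 3 and at 0.07 without ethanol 2. Without ethanol 3 its limma p was 0.0488 unadjusted and 0.999 adjusted, where 2.99% of all probe sets were under 0.05 unadjusted.

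Phagocyte markers are given beside Cyba. Of 10 macrophage and monocyte markers 4 were measured (Csf1r, Itgam, Cd14 and Fcgr2b), with differences of 0.05 to 0.21 and a summed linear signal of 82.8 to 121 in the controls and 94.1 to 116 with ethanol. Of 6 neutrophil markers 3 were measured (S100a9, Cxcr2 and S100a8), with differences of -0.06 to 0.21 and sums of 34.3 to 41.8 and 35 to 40. In limma 0 of these 7 passed. An array signal has no true 0, and the lowest of these markers, Itgam, had means of 2.57 and 2.66. The part of phagocytes in the Cyba values was not tested.

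**Figure D2:**
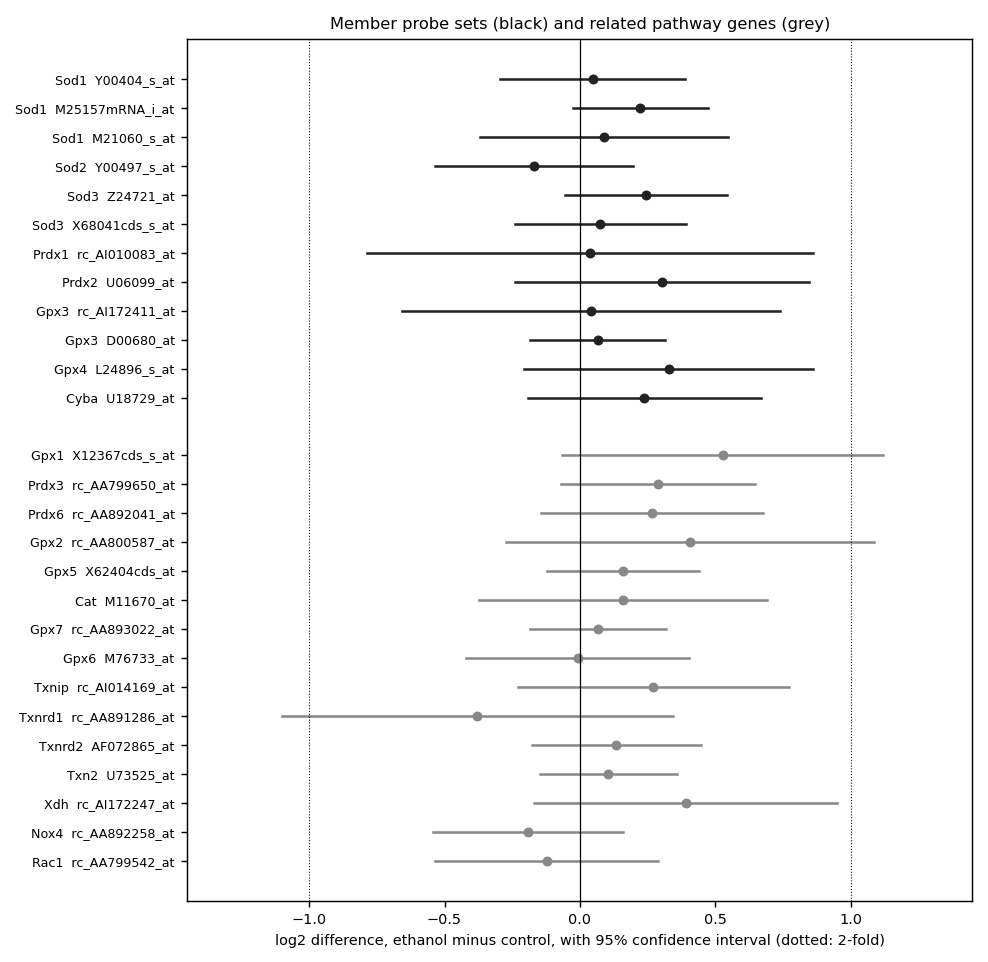
Log2 differences, ethanol minus control, with 95% confidence intervals from limma (horizontal axis) for the 12 member probe sets (black) and for the brightest probe set of 15 related genes (grey), with dotted lines at a 2-fold change. Every interval includes 0, and those of all 12 member probe sets stay inside the 2-fold lines.

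The wider pathway gave the same count of calls. Of 33 further genes listed for peroxide removal, thioredoxin and glutaredoxin cycling, superoxide sources and the copper chaperone of Sod1, 15 were measured. In limma 0 of them passed and 0 were at an unadjusted p under 0.05, where 4.58% of all probe sets were. Of the 15, 11 were above 0 in their brightest probe set, against 48.5% of all probe sets, and the median was 0.16. That share counts every probe set, also the dimmer ones of a gene, so the units differ. The lowest adjusted p was 0.967.

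Among peroxidases and catalase, 7 of the 8 measured genes were above 0, with a median of 0.21. Gpx1, the most widely expressed glutathione peroxidase, lay at 7.75, 7.42, 7.57 and 8.53 in the controls and at 8.57, 7.96 and 8.51 with ethanol (X12367cds_s_at). Control 4 was level with the higher ethanol arrays and the other controls lay below all 3, and the difference was 0.53 (SE 0.264, unadjusted p = 0.0756, limma adjusted p = 0.967). Its other probe sets stood at 0.37 and 0.07. Prdx3, the mitochondrial peroxiredoxin, was at 0.29, with a second probe set at 0.05. Prdx6, a peroxiredoxin that also has phospholipase activity and takes part in surfactant turnover, had 3 probe sets at 0.27, 0.18 and 0.45. Gpx2, the epithelial glutathione peroxidase, was at 0.41. Catalase (Cat) had 3 dim probe sets at 0.16, 0.07 and -0.16.

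The thioredoxin partners were split. Txnrd1, the cytosolic thioredoxin reductase and a known NRF2 target, lay at 7.30, 6.05, 6.65 and 7.20 in the controls and at 5.94, 6.37 and 6.96 with ethanol (rc_AA891286_at). The ethanol arrays overlapped the lower controls, and the difference was -0.38 (SE 0.322, limma adjusted p = 0.967), with a second probe set at -0.52. Txnip, the thioredoxin inhibitor, stood at 0.27 and 0.00 in its probe sets. The mitochondrial genes Txnrd2 and Txn2 were at 0.13 and 0.11, with the other Txnrd2 probe set at -0.11. Of 14 genes for superoxide sources 3 were measured. Xdh, which encodes xanthine oxidoreductase, was at 0.39, the NADPH oxidase gene Nox4 at -0.19 in a dim probe set, and the oxidase-activating GTPase gene Rac1 at -0.12.

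Pairs of members were compared over the arrays. Across the 7 arrays Prdx1 and Gpx3 ran in opposite directions, with Pearson's r = -0.954 (exact permutation p = 0.000397, adjusted p = 0.0111 over the 28 pairs of the 8 genes) and Spearman's rho = -0.964 (exact permutation p = 0.00278, adjusted p = 0.0778). Leaving out the 2 arrays farthest from the Prdx1 median gave r = -0.89, and after taking out the group means r was -0.957. Without control 2 it was -0.896 (exact permutation adjusted p = 0.233, 6 arrays). Of the 28 pairs this was the only one with an adjusted p under 0.05 for r. It did not pass with any 1 of the 4 controls or ethanol 4 left out, with r between -0.958 and -0.896 there. The exact test is coarser with 6 arrays, which have fewer orders. Without control 1, r was -0.958 with an exact permutation p = 0.00278 (adjusted p = 0.0778). Not passing there therefore does not by itself show a weaker correlation.

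Prdx1 and Gpx4 ran together (r = 0.887, rho = 0.786), and Gpx3 and Gpx4 in opposition (r = -0.824, rho = -0.714). Neither pair passed after adjustment, with exact permutation p of 0.0185 and 0.0208 for r, 0.048 and 0.0881 for rho, and an adjusted p = 0.146 for both values of r and of 0.224 and 0.341 for rho. Without the 2 arrays farthest from the median these were r = 0.798 and -0.791, and without control 2 they were 0.715 and -0.593 (exact permutation p = 0.106 and 0.218). Sod1, in its probe set Y00404_s_at, and Sod2 had r = -0.863 and rho = -0.679 (exact permutation p = 0.0125 and 0.11, adjusted p = 0.146 and 0.341). Their r was -0.96 without control 2 and -0.89 after taking out the group means, but -0.469 without the 2 arrays farthest from the Sod1 median, so it rests in part on those arrays. The other Sod1 probe sets ordered the arrays differently, so this value is that of 1 probe set.

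Of the 8 genes, 3 passed the test of correlation with a property of the whole array, the SD of its log2 values over all probe sets. With that SD the correlation was -0.952 for Gpx3, 0.918 for Prdx1 and 0.914 for Gpx4 (exact permutation p = 0.00139, 0.00516 and 0.00536, adjusted p = 0.0111, 0.0143 and 0.0143 over the 8 genes). Spearman's rho was -0.929, 0.857 and 0.786, with exact permutation p adjusted to 0.054, 0.0952 and 0.096. Without the 2 arrays farthest from the median SD, r was -0.921, 0.843 and 0.628. The other 5 genes did not pass (r from -0.648 for Sod1 to 0.549 for Prdx2), although Sod1 had a rho of -0.786, as far from 0 as that of Gpx4, and Sod3 an r of -0.819 without the 2 farthest arrays. For Gpx3, Prdx1 and Gpx4 in turn, correlations at least this far from 0 were found in 2.27%, 5.55% and 6.04% of all probe sets. The part of array spread in the pairings was not tested further. The Prdx1 and Gpx3 correlation was -0.954 after quantile normalization. That step equalizes the spread but keeps the ranking of probe sets within each array, so this value cannot decide the question. RNA integrity was read from actin alone, as its 3′ signal less its 5′ signal. This stood at 1.01 in control 1, at 1.10 in ethanol 4 and at 0.61 to 0.75 in the other arrays, with control 2 at 0.75. Its part in the member values was not tested.

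**Figure D3:**
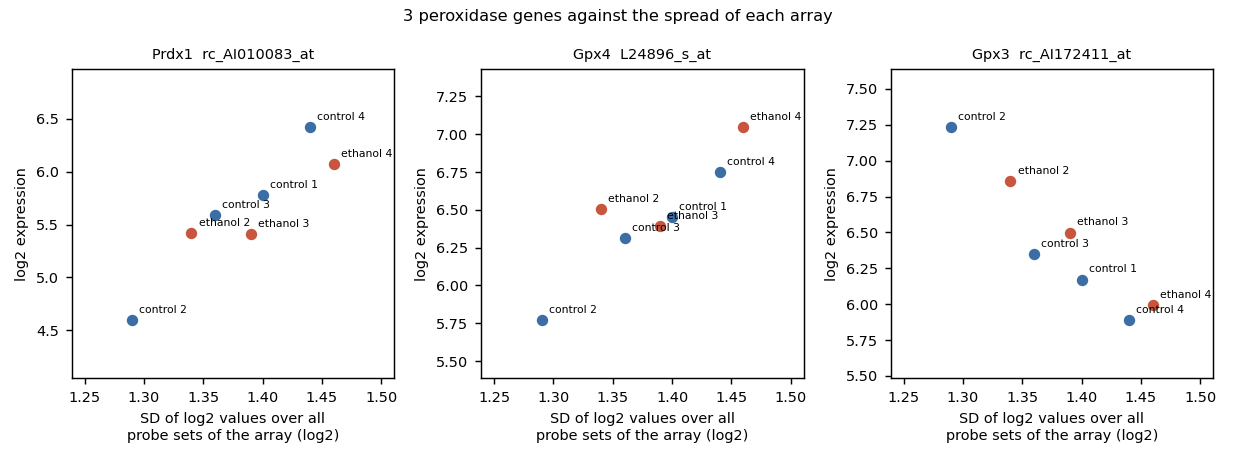
Log2 expression of Prdx1, Gpx4 and Gpx3 (vertical axes) against the SD of log2 values over all probe sets of the same array (horizontal axis), 1 point per array, controls in blue and ethanol in red. Control 2, with the smallest SD of 1.29, is lowest for Prdx1 and Gpx4 and highest for Gpx3, and the 2 diets mix along each trend.

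The genes whose pattern over the 7 arrays was most like that of these members are named as a description, since they were picked as the highest correlations. For Prdx1 they were Psmd2, Gnas and Pkm, with r of 0.99, 0.982 and 0.974 and diet differences of 0.03, 0.04 and -0.01. For Gpx3 they were AKR1C3l1, Klra22 and Plagl1, with r of 0.985, 0.982 and 0.979 and differences of -0.03, -0.06 and -0.03. For Gpx4 they were Selenop, Ugcg and Spry1, with r of 0.982, 0.979 and 0.979 and differences of 0.47, 0.11 and 0.30. Leaving out the 2 arrays farthest from the member's median left r between 0.869 and 0.989, and rho ran from 0.893 to 1.0.

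**Figure D4:**
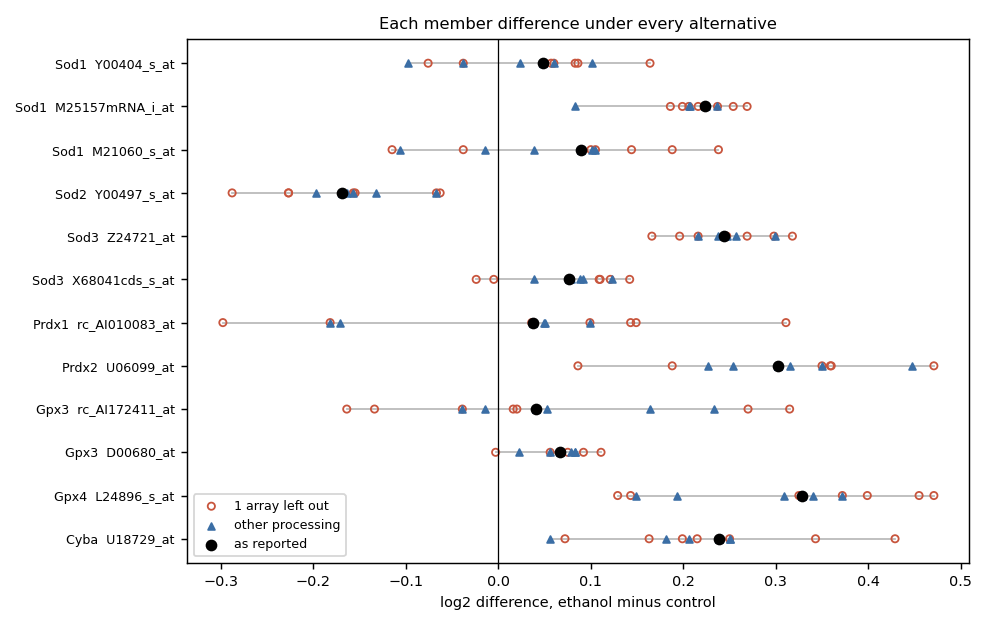
Log2 difference of each member probe set, ethanol minus control (horizontal axis), as reported (black), with 1 array left out (open red circles) and under the other processing alternatives (blue triangles), with a grey line over the whole range. Sod2 stays below 0, and Sod1 M25157mRNA_i_at, Sod3 Z24721_at, Prdx2, Gpx4 and Cyba stay above 0, while the other 6 probe sets fall on both sides.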

How the data were processed

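Total RNA from the type 2 cells of 7 rats (4 control, 3 ethanol) was hybridised to Affymetrix arrays as biotin-labelled RNA, per the labels' protocols. The deposited table holds 1 value per probe set and array, read as log2 expression from its range. The authors' steps of probe summarisation, background correction and normalization are not given in the sources used here. Summaries that compress low signals make differences of dim probe sets look smaller. Of 8799 probe sets, 59 array controls were left out. Genes were named by the platform's annotation table, from probe sets with 1 symbol only. The 8 member genes found kept their symbols in the RefSeq gene table of GRCr8. The brightest probe set (highest mean over 7 arrays) stood for a gene.

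Diets were compared per probe set by limma 3.58.1 under R 4.3.3 (group as the only term, empirical Bayes, two-sided, Benjamini-Hochberg over 8740, threshold 0.05), after testing the model on simulated data. Correlations were tested two-sided over all 5040 orders of the arrays. Python 3.11.15 and matplotlib 3.10.9 served the figures. Alternatives were no moderation, a trended robust prior, quantile normalization, array weights (statmod 1.5.0), median centring, a replicate block, filters at the 25th percentile and at the median of mean signal, each array left out and gene means over probe sets. Array SD as a covariate, the count of directions, the motif and all tests of correlation were added after seeing the data. The members and lists were chosen with earlier results of these data known. Every member probe set, the up to 4 lowest p-values of each pathway list, the listed markers and the 3 genes most like each of the 3 most variable members could be named.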

Additional observations from a re-analysis of the deposited data

How the results depend on the processing

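No member probe set passed an adjusted p of 0.05 under any alternative run (0 of 12, or of 10 with the filter at the median), and the lowest adjusted p was 0.412, for Sod3 Z24721_at with array weights. At unadjusted p under 0.05 the count of members was 0 as reported and 1 with no moderation (Sod1), array weights (Sod3), the replicate block (Gpx4) and the array SD as a covariate (Sod3), and 0 to 1 with each array left out. Of all probe sets, 4.58% were at that level as reported, 4.2% with no moderation, 11.8% with array weights, 8.12% with the block and 8.74% with the covariate. With each array left out that share ran from 2.64% (without control 3) to 9.03% (without control 4). The related genes at that level were 0 as reported, 6 with the replicate block, 1 with the array SD as a covariate and 0 to 2 with each array left out. Of all probe sets 13 passed the adjusted threshold, against 0 without moderation and 23 with the replicate block, and 13 to 16 with each array left out. The replicate numbers are not said to pair animals, so they were not taken to do so. Same-numbered arrays deviated together at 0.425, 0.067 and 0.432 for ethanol 2, 3 and 4. For ethanol 2 and ethanol 4 this was the highest value with any control. Ethanol 3 was at 0.104 with control 1 and 0.085 with control 2, both above its value with control 3. The arrays with the lowest SD of log2 values were control 2 and ethanol 2, at 1.29 and 1.34. Those with the highest were control 4 and ethanol 4, at 1.44 and 1.46. The part of array spread in the same-number values was not tested. Whether animals were paired was not tested, and the block leaves out control 1. With the block, 9 of the 12 member probe sets were above 0, against 11 as reported.

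Differences near 0 changed sign in places, and 0 of these were called. Gpx3 rc_AI172411_at was at -0.014 after quantile normalization and -0.039 with the replicate block. Sod1 Y00404_s_at was at -0.098 and -0.038 in the same settings. Prdx1 was at -0.171 with array weights and -0.182 with the array SD as a covariate, and Sod1 M21060_s_at at -0.106 and -0.014. With each array left out the ranges were -0.164 to 0.315 for Gpx3 rc_AI172411_at, -0.003 to 0.111 for Gpx3 D00680_at, -0.298 to 0.311 for Prdx1, -0.115 to 0.238 for Sod1 M21060_s_at, -0.076 to 0.164 for Sod1 Y00404_s_at and -0.024 to 0.142 for Sod3 X68041cds_s_at. Sod1 M25157mRNA_i_at kept its sign but was at 0.083 after quantile normalization. The cause was not tested. The median over the 8 genes ranged from 0.084 to 0.254. No detection calls were used, so signal over background is unknown, and a change in the dim probe sets of Gpx3 (D00680_at) and Cat could be missed.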

Other observations

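One further probe set lists Gpx4 among its symbols, rc_AI176460_s_at, which the platform assigns to 10 genes including Hbb and a ribosomal RNA gene. It was dim, at 3.20 to 3.40 in the controls and 3.25 to 3.37 with ethanol, and differed by 0.02 (SE 0.110), so it was not counted for Gpx4. Over the 12 member probe sets, ethanol 2 was the highest array in 5 and the lowest in 1, and control 2 was the lowest in 5 and the highest in 1.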
